A study of Mus musculus with 8 samples.

Results

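A set of 6 genes of the contractile actin system were examined for binding of the zinc finger transcription factor GATA2 in 2 mouse cell lines. They were Myh9, which encodes the heavy chain of nonmuscle myosin IIA, the 4 tropomyosin genes Tpm1, Tpm2, Tpm3 and Tpm4, and Vcl, which encodes vinculin. The set was chosen by the positions of the peaks analysed here, with GATA2 sites at some of the genes already known, so the presence of peaks at these 6 of 21631 protein-coding genes is a description and carries no test. Chromatin immunoprecipitation with a GATA2 antibody and sequencing (ChIP-seq) was done in 3T3-L1 cells, a mouse fibroblast line committed to the fat lineage, and in C3H10T1/2 cells, a mouse embryonic fibroblast line that can enter the fat, bone, cartilage or muscle lineage. The labels give 2 ChIP and 2 input libraries (input is chromatin sequenced with no antibody) for each line, 8 in all, and name no treatment or genotype that would set the cultures of a line apart. DNA from separate immunoprecipitations was pooled before sequencing, per the labels' protocols. One deposited peak list per line was analysed, with 2445 peaks in 3T3-L1 and 1557 in C3H10T1/2. The lists give positions in mm10 (GRCm38) and hold no height or score, so a peak is described by where it lies, how wide it is in bp and whether the other line has a peak at the same place. Replicate values are lacking, as each line has a single list, and the read depth is unknown, so a gene without a peak in one list is a gene where none was listed, not one shown to be unbound. Expression was not analysed here, and the lists cannot be used to check either line against markers of its cell type.

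Myosin II filaments pull on actin filaments and so put tension on the cell. Tropomyosins are coiled coils that lie along actin filaments and set which myosins and other proteins can bind them, and vinculin ties the filaments to cell adhesions by joining talin or alpha-catenin to actin. Precursor cells with many stress fibres lose them as they turn into fat cells. Many genes of this system are driven by serum response factor (SRF), which binds a sequence called the CArG box, and GATA2 is known to hold back the maturing of preadipocytes.

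The sequences just before the listed starts of the genes were looked at first, since these are the only stretches of these loci for which sequence was at hand. The RefSeq promoter table (GRCm38.p6) held all 6 genes, with 7 starts because Tpm3 has 2. No peak of either list overlapped any of the 7 windows of 250 bases before a start. Peaks over such windows were rare in general, at 32 of 21045 windows of protein-coding genes (0.152%) in 3T3-L1 and 39 (0.185%) in C3H10T1/2. Of these windows 4 are printed, each 5′ to 3′ and ending at the base before the start. Tpm1 and Tpm4 are shown because they had the peaks nearest to a listed start, the lower start of Tpm3 because it alone held the longer GATA motif, and Vcl because it alone held a CArG box. Capitals mark GATA, its complement TATC, and the CArG box.
Tpm1 chr9:67049214-67049463, minus strand: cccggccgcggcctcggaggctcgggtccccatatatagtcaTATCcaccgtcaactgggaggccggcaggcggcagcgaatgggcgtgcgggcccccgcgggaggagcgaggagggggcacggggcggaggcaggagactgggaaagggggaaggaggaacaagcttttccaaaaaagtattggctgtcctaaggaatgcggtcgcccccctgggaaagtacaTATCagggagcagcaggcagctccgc
Tpm3 chr3:90072401-90072650, plus strand: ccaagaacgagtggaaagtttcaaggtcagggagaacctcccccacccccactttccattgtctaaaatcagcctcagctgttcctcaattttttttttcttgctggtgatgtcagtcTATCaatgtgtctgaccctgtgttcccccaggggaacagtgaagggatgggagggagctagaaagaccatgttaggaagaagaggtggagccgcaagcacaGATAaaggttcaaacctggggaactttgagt
Tpm4 chr8:72135038-72135287, plus strand: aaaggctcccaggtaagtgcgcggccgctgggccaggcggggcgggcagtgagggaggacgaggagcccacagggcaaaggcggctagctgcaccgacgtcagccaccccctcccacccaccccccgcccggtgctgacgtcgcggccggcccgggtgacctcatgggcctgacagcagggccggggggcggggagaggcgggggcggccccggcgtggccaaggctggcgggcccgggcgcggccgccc
Vcl chr14:20929148-20929397, plus strand: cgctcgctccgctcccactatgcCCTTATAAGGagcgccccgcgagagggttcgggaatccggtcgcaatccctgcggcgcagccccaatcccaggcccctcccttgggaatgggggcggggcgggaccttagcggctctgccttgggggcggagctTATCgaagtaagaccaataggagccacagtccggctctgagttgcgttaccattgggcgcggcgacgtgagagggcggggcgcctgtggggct

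The letters GATA (or TATC on the other strand) occurred in 4 of the 7 windows, against 49.1% of the 21045 windows of protein-coding genes. Tpm1 held 2 matches, the lower Tpm3 start 2, the upper Tpm3 start 1 and Vcl 1, while Myh9, Tpm2 and Tpm4 held 0. The longer form AGATAA (or TTATCT), which contains GATA, occurred in 1 window, that of the lower Tpm3 start, against 8.84% of all windows. The CArG box, searched by its consensus on both strands, occurred in the Vcl window alone of the 7, against 1.40% of all windows. GGAATG (or CATTCC), a core bound by the TEAD factors that act with YAP, occurred in 2 windows, those of Tpm1 and Vcl, against 11.6% of all windows. These matches describe the letters in the windows and do not mark bound sites.

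Within 100 kb of the 6 genes there were 13 peaks, 6 in the 3T3-L1 list and 7 in the C3H10T1/2 list. Of the 13, 5 lay inside a gene of the set, 5 lay beyond a 5′ boundary and 3 lay beyond a 3′ boundary. Only 2 of the 13 had their centre within 5 kb of a listed start, at Tpm1 in C3H10T1/2 and at Tpm4 in 3T3-L1.

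**Figure D1:**
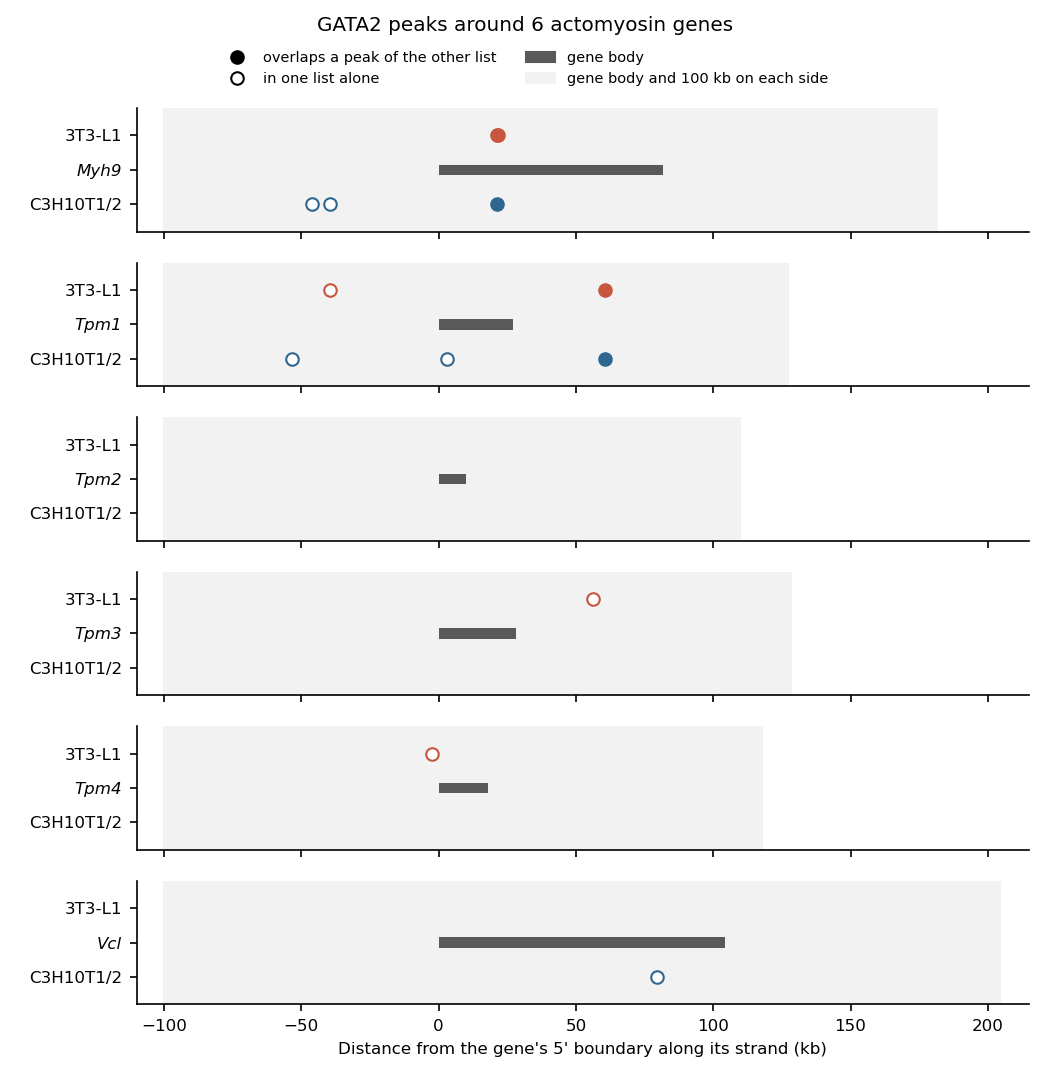
Peak centres of both lists around each gene, drawn in kb from the gene's 5′ boundary along its strand. Filled points overlap a peak of the other list, open points do not, dark bars are gene bodies and grey areas are the gene and 100 kb on each side. Myh9 and Tpm1 have peaks in both lines, Tpm3 and Tpm4 in 3T3-L1, Vcl in C3H10T1/2 and Tpm2 in neither, and the 2 peaks of 3T3-L1 in Myh9 are so close that their points coincide.

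Myh9 was the 1 gene of the 6 with a site inside it in both lines. The gene runs on the minus strand of chromosome 15, from 77760585 to 77842175 (81.6 kb). The 3T3-L1 list had a peak of 162 bp at 77820570 to 77820731 and one of 98 bp at 77820865 to 77820962, and the C3H10T1/2 list had a single peak of 436 bp at 77820541 to 77820976. All 3 lay between 21.3 and 21.5 kb downstream of the start, about 26.2% of the way along the gene at the centre of the C3H10T1/2 peak. Which exon or intron this is cannot be given, because the gene table used lists no exons.

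Both 3T3-L1 peaks in Myh9 fell wholly inside the C3H10T1/2 peak. They were 133 bp apart and covered 260 bp, or 59.6%, of it. The outer edges of the sites in the lines differed by 29 bp at the lower end and 14 bp at the higher end, so the 2 peaks of 3T3-L1 spanned nearly the same stretch as the 1 peak of C3H10T1/2. Of the 540 C3H10T1/2 peaks that overlapped any 3T3-L1 peak, 6 overlapped at least 2, and the Myh9 site was among these 6. The C3H10T1/2 peak was the widest of that list's peaks near the 6 genes and ranked 34 of 1557 by width in the list.

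C3H10T1/2 had 2 further peaks beyond the 5′ end of Myh9, which 3T3-L1 did not. One of 189 bp, at 77881691 to 77881879, lay 39.6 kb before the gene, and one of 128 bp, at 77888331 to 77888458, lay 46.2 kb before it. They were 6.61 kb apart, and the nearest 3T3-L1 peaks were those inside Myh9, 60.9 and 67.5 kb away. Both lay nearer to Txn2, which encodes mitochondrial thioredoxin, than to Myh9, at 33.3 and 26.7 kb from that gene. Just outside the window, 129 kb before Myh9, both lists again had a peak, at 77971077 to 77971299 in 3T3-L1 and at 77971045 to 77971306 in C3H10T1/2. Txn2 lies between Myh9 and this site, so the site was also nearer to Txn2 than to Myh9. Whether other genes lie nearer still to this site was not looked up.

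**Figure D2:**
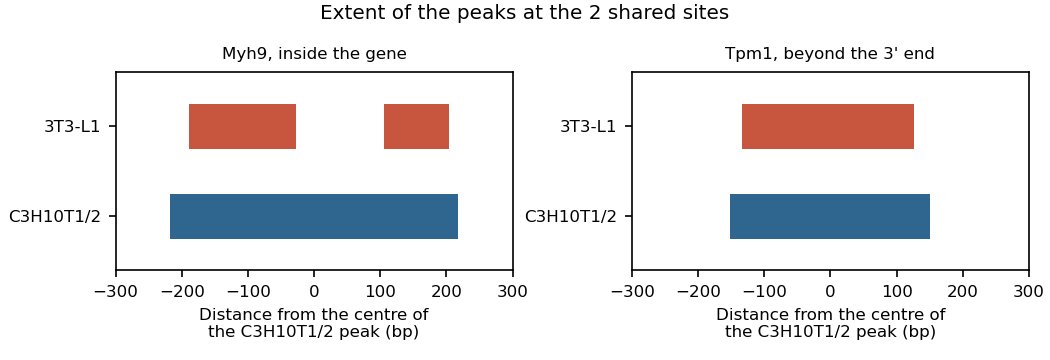
Extent in bp of the peaks at the shared sites of Myh9 and Tpm1, drawn from the centre of the C3H10T1/2 peak in order of genome coordinate, with 3T3-L1 above C3H10T1/2. At Myh9 a gap of 133 bp separates 2 peaks of 3T3-L1 that both lie inside the C3H10T1/2 peak, and at Tpm1 1 peak of each line covers the same stretch.

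Tpm1 encodes the alpha tropomyosin of striated muscle and, from other promoters and exons, several forms of nonmuscle cells. It was the tropomyosin gene with the most peaks, 2 in 3T3-L1 and 3 in C3H10T1/2 within 100 kb, of which 2 and 1 were at least as wide as their list's median. The gene lies on the minus strand of chromosome 9, from 67022590 to 67049672 (27.1 kb). A shared site lay 33.5 kb beyond its 3′ boundary, where the 3T3-L1 peak ran from 66988937 to 66989197 (261 bp) and the C3H10T1/2 peak from 66988920 to 66989221 (302 bp). Their centres were 3.5 bp apart, the 3T3-L1 peak lay wholly inside the other, and it covered 86.4% of it. This was the closest match between the lines near any of the 6 genes. The site was nearer to Lactb, which encodes a mitochondrial serine protease-like protein, at 13.6 kb, than to Tpm1.

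Inside Tpm1 a peak was listed in C3H10T1/2 alone, 155 bp wide at 67046364 to 67046518, 2.77 kb downstream of the listed start and 42.9 kb from the nearest 3T3-L1 peak. Before the 5′ boundary each line had 1 unshared peak. In 3T3-L1 it lay 39.7 kb away at 67089231 to 67089451 (221 bp), nearer to the long noncoding RNA gene Gm10646, at 13.0 kb, than to Tpm1. In C3H10T1/2 it lay 53.2 kb away at 67102822 to 67102977 (156 bp), inside Gm10646. These 2 peaks were 13.6 kb apart. The peak of C3H10T1/2 in Gm10646 was the farthest from its gene of all those counted within 100 kb.

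Tpm4, whose product is a tropomyosin of nonmuscle cells, had 1 peak in 3T3-L1 and 0 in C3H10T1/2. The 3T3-L1 peak was 133 bp wide, at 72133006 to 72133138 on chromosome 8, and its centre lay 2.22 kb upstream of the start of the gene (plus strand, 72135288 to 72153142, 17.9 kb). No other gene of the table was nearer to it. The nearest C3H10T1/2 peak lay 1.46 Mb from the gene, in Lsm4, and overlapped a 3T3-L1 peak. Of the tropomyosin genes, then, Tpm1 and Tpm4 each had a peak near a listed start, Tpm4 in 3T3-L1 alone and Tpm1 in C3H10T1/2 alone.

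Tpm3 also had 1 peak in 3T3-L1 and 0 in C3H10T1/2, but farther away. The gene encodes a slow-muscle tropomyosin and nonmuscle forms, and lies on the plus strand of chromosome 3 from 90072651 to 90100902 (28.3 kb). The 3T3-L1 peak, 184 bp wide at 90128770 to 90128953, lay 28.0 kb beyond the 3′ boundary and inside the neighbouring gene Nup210l (90101007 to 90212151), which encodes a relative of a nuclear pore membrane protein. The nearest C3H10T1/2 peak lay 1.58 Mb below Tpm3, in Lmna, which encodes lamins A and C.

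Tpm2, which encodes beta tropomyosin (chromosome 4, minus strand, 43513726 to 43523583, 9.86 kb), lacked a peak within 100 kb in both lines. Its nearest peaks lay 3.72 Mb away in 3T3-L1, in Col15a1, and 2.81 Mb away in C3H10T1/2, in Aptx. Of all protein-coding genes, 94.7% had a 3T3-L1 peak as near or nearer and 85.5% a C3H10T1/2 peak as near or nearer. Tpm2 was thus the farthest from a peak of the 6 genes in both lists.

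Vcl had 1 peak in C3H10T1/2 and 0 in 3T3-L1. It is the longest of the 6 genes, on the plus strand of chromosome 14 from 20929383 to 21033676 (104 kb). The C3H10T1/2 peak, 242 bp wide at 21008805 to 21009046, lay inside the gene 79.5 kb downstream of the listed start, 76.3% of the way to the 3′ boundary. The nearest 3T3-L1 peak to the gene lay 674 kb beyond it, in Dupd1. The Vcl peak was thus far from the start that holds the CArG box printed above.

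Peaks near these genes spanned a broad range of widths. In 3T3-L1 they ranged from 98 bp (Myh9) to 261 bp (Tpm1) with a median of 173 bp, and the whole list ranged from 50 to 3323 bp with a median of 144 bp. In C3H10T1/2 they ranged from 128 bp (beyond Myh9) to 436 bp (inside Myh9) with a median of 189 bp, against 95 to 1705 bp and a median of 184 bp for the list. In each line 4 of these peaks were wider than the list's median. The 3 widest within their own list were the C3H10T1/2 peak in Myh9 (width percentile 97.9) and the shared Tpm1 peaks (90.5 in C3H10T1/2 and 89.2 in 3T3-L1). The shared peaks of 3T3-L1 in Myh9 had percentiles of 59.7 and 19.6, so the shared peaks were not all wide. The peaks found in C3H10T1/2 alone had percentiles of 12.7 and 53.9 at Myh9, 31.8 and 32.3 at Tpm1 and 76.0 at Vcl. In 3T3-L1 the unshared peaks had percentiles of 81.5 at Tpm1, 69.6 at Tpm3 and 44.2 at Tpm4. Width depends on the authors' peak calling, and the most frequent width was 81 bp in 3T3-L1 (106 peaks) and 124 bp in C3H10T1/2 (98 peaks), so widths are compared within a list and not between the lists.

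**Figure D3:**
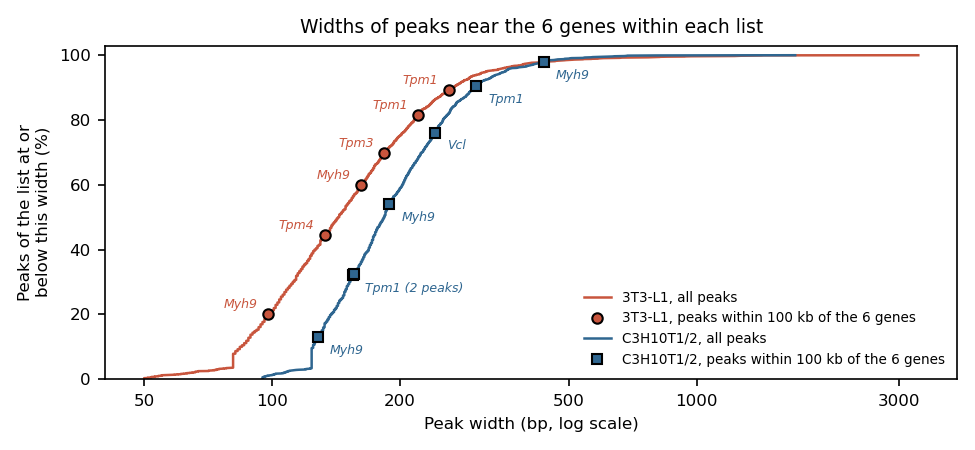
Cumulative share (%) of each list's peaks by width in bp on a log scale (lines), with the peaks within 100 kb of the 6 genes marked and named (circles for 3T3-L1, squares for C3H10T1/2). The C3H10T1/2 peak in Myh9, at 436 bp, stands near the top of its list, and the narrowest marked peaks are the 98 bp peak of 3T3-L1 in Myh9 and the 128 bp peak of C3H10T1/2 beyond Myh9.

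Counted by gene, 1 of the 6 genes had a peak in its body in 3T3-L1 and 3 in C3H10T1/2, where 2.79% and 2.59% of all 21631 protein-coding genes did. In the body or within 10 kb it was 2 genes in 3T3-L1 and 3 in C3H10T1/2, with 3.96% and 3.64% of all genes. In the body or within 100 kb it was 4 genes in 3T3-L1 and 3 in C3H10T1/2, with 13.9% and 12.1% of all genes. The 6 genes were chosen with these peaks known, so nothing is read from these counts against the shares of all genes. Among the 11659 genes between 9.86 and 104 kb long, the range of the 6 genes, the shares were 2.05% in 3T3-L1 and 1.9% in C3H10T1/2 for the body, 3.44% and 3.22% with 10 kb added, and 14.0% and 12.4% with 100 kb added.

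Divided by line, Myh9 and Tpm1 had such a peak in both, Tpm3 and Tpm4 in 3T3-L1 alone, Vcl in C3H10T1/2 alone and Tpm2 in neither. Of all protein-coding genes, 6.35% had one in both lines, 7.54% in 3T3-L1 alone, 5.7% in C3H10T1/2 alone and 80.4% in neither. By peak, 3 of the 6 peaks of 3T3-L1 near these genes overlapped a peak of the other line, as did 22.4% of its whole list, and 2 of the 7 peaks of C3H10T1/2 did, against 34.7% of its list. The 3 overlapping peaks of 3T3-L1 and the 2 of C3H10T1/2 form only 2 sites, in Myh9 and beyond Tpm1.

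**Figure D4:**
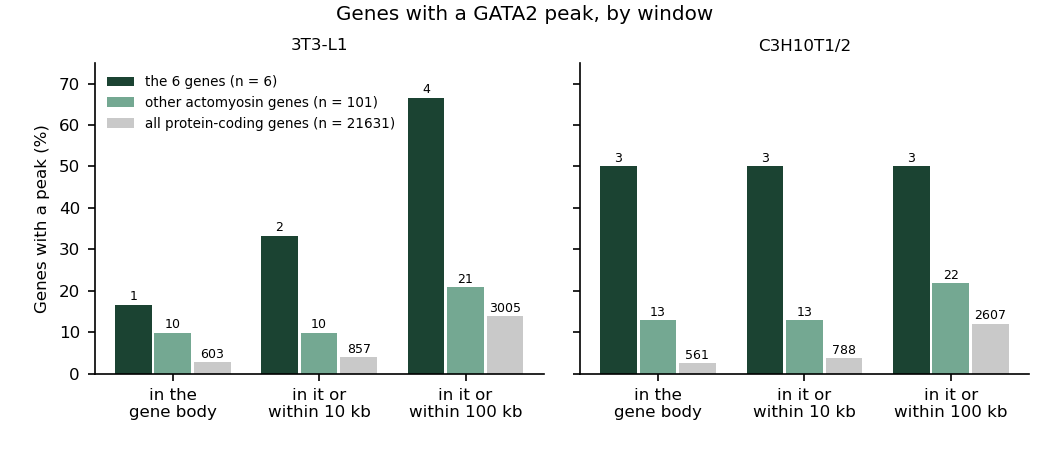
Share (%) of genes with a peak centre in the body, in it or within 10 kb, and in it or within 100 kb, for the 6 genes, 101 other actomyosin genes and all protein-coding genes, with 3T3-L1 left and C3H10T1/2 right. Numbers over the bars count the genes, so the bars of the 6 genes stand for 1 to 4 genes each.

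The genes whose counts were most like those of Myh9 and Tpm1 were sought over 6 counts, those in the body, within 10 kb and within 100 kb in each list, by Euclidean distance. Angpt1, which encodes the ligand angiopoietin 1, was the 1 gene with the same 6 counts as Myh9 (distance 0), and 2 genes differed from it by 1 peak, of which the collagen VIII gene Col8a1 was the closer in length. Adamts6, a metalloprotease gene, was the 1 gene with the same counts as Tpm1, and 2 genes differed by 1 peak, of which Bbox1, an enzyme gene of carnitine synthesis, was the closer in length. The matched genes were all longer. Angpt1 spans 252 kb and Col8a1 130 kb, against 81.6 kb for Myh9. Adamts6 spans 210 kb and Bbox1 50.8 kb, against 27.1 kb for Tpm1. The part of length in these matches was not tested. The other 4 genes had fewer than 2 peaks, which many genes share, and were not matched.

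The wider actomyosin system was followed in 101 other genes in 8 groups by role, a list made with earlier results of these data known. In the body, 10 of the 101 had a peak in 3T3-L1 and 13 in C3H10T1/2, and widening to 10 kb added 0 genes in each line. Within 100 kb it was 21 in 3T3-L1 and 22 in C3H10T1/2. The shares of all protein-coding genes are those given above for the same windows. The 101 genes have a median length of 56.4 kb against 17.3 kb for all protein-coding genes, and a longer gene offers a larger window. The part of length in these counts was not tested, and no difference from other genes is claimed.

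The groups are small, and their counts are given beside the shares of all protein-coding genes within 100 kb, 13.9% in 3T3-L1 and 12.1% in C3H10T1/2, without a reading of the difference. Of the 10 genes for nonmuscle myosin II and its regulators, 1 had a peak within 100 kb in 3T3-L1 and 3 in C3H10T1/2. Mylk, which encodes the kinase that activates myosin by phosphorylating its light chain, had 2 peaks in its body in 3T3-L1, at 34765726 to 34765926 and 34839632 to 34839833 on chromosome 16. The second of these overlapped the single C3H10T1/2 peak in the gene, at 34839604 to 34839849. Ppp1r12a, which encodes the targeting subunit of the phosphatase that reverses this step, had a peak in its body in C3H10T1/2 alone (chromosome 10, 108185926 to 108186050). Myh10, which encodes the heavy chain of nonmuscle myosin IIB, had a C3H10T1/2 peak 16.6 kb from the gene and none within 100 kb in 3T3-L1.

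Of the 23 focal adhesion genes, 6 had a peak within 100 kb in 3T3-L1 and 4 in C3H10T1/2. Talin 2, a partner of vinculin, is encoded by Tln2, which lies 167 kb from Tpm1 on chromosome 9 and had 2 shared sites in its body. The 3T3-L1 peaks ran from 67463500 to 67463729 and from 67534648 to 67534946, and the C3H10T1/2 peaks from 67463471 to 67463735 and from 67534506 to 67534957. The first of these sites was also the nearest to Tpm1 outside its window in both lists, 414 kb away. Sorbs3, which encodes the vinculin-binding adaptor vinexin, had a C3H10T1/2 peak in its body (chromosome 14, 70206432 to 70206585) and a shared site 10.1 kb outside the gene at the 3T3-L1 peak. In the tensin gene Tns3 each line had 1 peak, and these did not overlap. Parva (alpha-parvin) and Sorbs2 (an adaptor related to vinexin) had peaks in the body in 3T3-L1 alone, and Lims1 (the LIM protein PINCH1) in C3H10T1/2 alone. Itgav, which encodes the integrin alpha V chain, had its 1 peak 46.1 kb away in 3T3-L1.

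Among the 17 cross-linkers and stress fibre proteins, 6 had a peak within 100 kb in each line. Synpo2, which encodes an actin-bundling protein, had a shared site in its body, on chromosome 3, where the 3T3-L1 peak spanned 123204716 to 123204867 and that of C3H10T1/2 spanned 123204627 to 123204897. Pdlim5, which encodes a scaffold bound to alpha-actinin, had one on the same chromosome, where the peaks spanned 142330468 to 142330705 (3T3-L1) and 142330456 to 142330712 (C3H10T1/2). Cald1, which encodes caldesmon, an actin-bound inhibitor of myosin, held 1 peak of each line, and Palld, which encodes palladin, had 3 in 3T3-L1 and 1 in C3H10T1/2, with no overlap in either gene. The calponin genes Cnn2 and Cnn3 had a peak in C3H10T1/2 alone, 54.0 and 63.6 kb away, and Lmod1 (leiomodin 1) and Actn4 (alpha-actinin 4) had one in 3T3-L1 alone, 71.7 and 72.8 kb away. The 6 actin genes and the 6 genes for tropomodulins and leiomodins 2 and 3, proteins that cap or nucleate actin filaments, lacked a peak within 100 kb in both lines.

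In the remaining groups, 2 of 5 adherens junction genes had a peak within 100 kb in each line. Inside the cadherin gene Cdh11 and the formin gene Diaph3 a peak was listed in C3H10T1/2 alone, and for Cdh11 the nearest 3T3-L1 peak lay 35.3 kb outside. Of the 16 SRF and YAP regulators and targets, 4 had a peak within 100 kb in 3T3-L1 and 2 in C3H10T1/2. Myocd, which encodes the SRF coactivator myocardin, had a peak in its body in 3T3-L1 alone, and Fhl2, a LIM protein gene, in C3H10T1/2 alone. The YAP target Ccn1 had an unshared peak in each line, 28.0 kb away in 3T3-L1 and 35.0 kb away in C3H10T1/2. Amotl2, which encodes an inhibitor of YAP, and Tead3, which encodes one of its DNA-binding partners, had a peak in 3T3-L1 alone, 21.9 and 64.8 kb away.

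**Figure D5:**
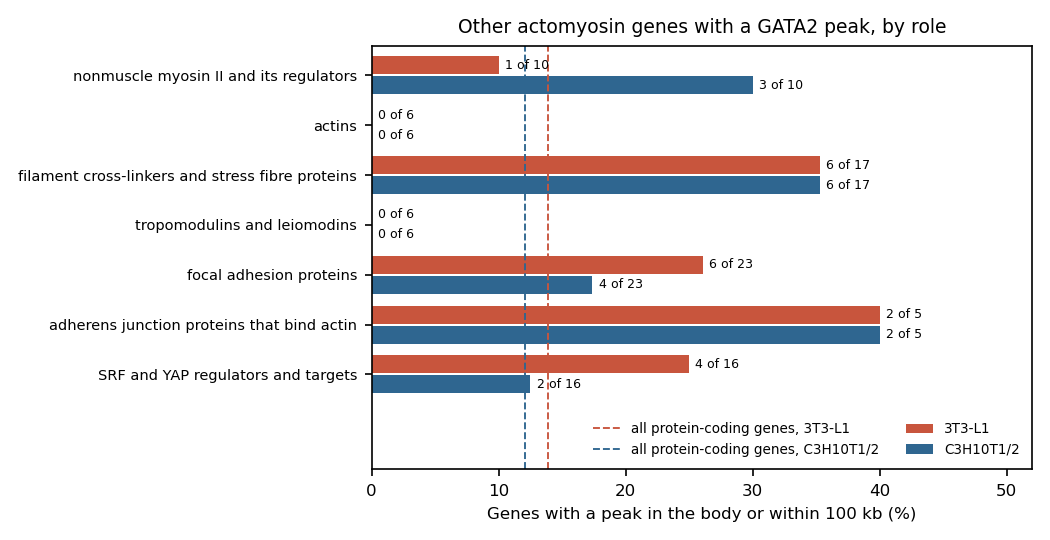
Share (%) of the other actomyosin genes with a peak in the body or within 100 kb, for 7 of the 8 role groups, with 3T3-L1 above C3H10T1/2 in each pair and dashed lines at the share of all protein-coding genes in each line. Counts stand beside the bars, and the actins and the group of tropomodulins with leiomodins 2 and 3 stand at 0 of 6 in both lines, while Lmod1 is counted among the cross-linkers and stress fibre proteins.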

How the data were processed

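ChIP-seq of GATA2 in 3T3-L1 and C3H10T1/2 cells was analysed from the 2 peak lists that the authors deposited, which give the chromosome, start and end of each peak in bp and no score. The submitters' processing notes name mm10 as the build, and CASAVA 1.8, MACS2, bedtools, Bowtie2 and SAMtools without saying what each did. The use of replicate libraries and input and the peak threshold, not given in the sources used here, affect how many peaks were listed and how wide they are. Starts were counted from 1 here. Genes and promoter sequences were taken from RefSeq tables of GRCm38.p6, the mm10 assembly, on chromosomes 1 to 19 and X.

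A peak belonged to a gene when its centre lay in the gene's span or within 10 or 100 kb of it, and peaks of the 2 lists were shared when they had at least 1 bp in common. A 5′ or 3′ boundary is the end of the gene's span on its strand, and a listed start is one in the promoter table. Counts were made with Python 3.11.15, pandas 2.3.3 and numpy 2.4.6 and were tested on simulated data. The genes and lists were chosen with earlier results of these data known, and no significance test was made. All peaks of the 6 genes are named. Of the other actomyosin genes, those with a peak in the body or within 10 kb are named, and at most 4 per role with a peak only within 100 kb. The totals include 1 role group whose own counts are not reported here. Depth per library is unknown.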

Additional observations from a re-analysis of the deposited data

How the results depend on the processing

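The counts for the 6 genes, their peaks, their shared peaks and the other actomyosin genes stayed within 1.5 times of those reported when any overlap replaced the peak centre, when dense blocks of at least 8 peaks with gaps of at most 20000 bp were left out, with windows of 5 or 50 kb for the 6 genes and, for sharing, with centres within 1 kb. With only peaks at least as wide as their list's median, genes of the 6 with a peak within 10 kb numbered 1 in 3T3-L1 (Tpm4 was lost). In C3H10T1/2 those with a peak in the body, or within 10 kb, numbered 2. The peak inside Tpm1, 155 bp wide, fell below that list's median of 184 bp. The peaks near the starts of Tpm4 and Tpm1 were thus both lost. By gene, peaks within 100 kb then numbered 1 at Myh9 and 0 at Tpm4 in 3T3-L1 and 1 at Tpm1 in C3H10T1/2. Peaks within 100 kb of all 6 genes numbered 4 in C3H10T1/2, and other actomyosin genes with a peak within 100 kb numbered 11 in 3T3-L1 and 12 in C3H10T1/2. The share of all protein-coding genes was not computed for these wider peaks, so the lower counts are not read as a trait of the genes. The other actomyosin genes numbered 10 in 3T3-L1 and 13 in C3H10T1/2 in a 10 kb window. When sharing required 50% of both peaks, 1 peak of each line stayed shared, since neither 3T3-L1 peak in Myh9 covers 50% of the C3H10T1/2 peak.

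No paired analysis was possible because each line has 1 list, with no value per library. Leaving out a replicate could not be done for the same reason. Depth is unknown, so weak sites cannot be told from absent ones.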

Other observations

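Afdn, which encodes the junction protein afadin and held no peak in its body, had a site shared by the lines 90.9 kb away. Over all 101 other actomyosin genes, 9 of 28 distinct peaks within 100 kb in 3T3-L1 overlapped a peak of the other line. In C3H10T1/2 it was 9 of 26. Across each whole list the overlapping share was 22.4% in 3T3-L1 and 34.7% in C3H10T1/2. These counts were not tested against the whole-list shares, and no trait of the actomyosin genes is read from them.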
